A study of Mus musculus with 12 samples.

Results

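The change in gene expression of a mouse brown adipocyte line over 8 days of differentiation was read from 6 of the 12 arrays of the study, 3 of brown preadipocytes at day 0 and 3 of brown adipocytes at day 8. All genes with a probe set of a single symbol were members of the comparison, 18194 in all, and 13746 of them were bright enough to test. The change was taken as adipocyte minus preadipocyte arrays on the scale log2(signal + 16), so that a change of 1 is a doubling well above the floor and less than that near it. The other 6 arrays, from the white line 3T3-L1 at day 0 and day 10, entered the filter on low signals, the estimate of the spread and the test of whether a change differed between the lines. With the brown arrays alone 3625 genes were called higher and 4185 lower.

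The brown cells were left for 2 days after confluence, which was called day 0. They were then induced for 3 days with 0.5 mM IBMX, a phosphodiesterase inhibitor, 125 µM indomethacin, 1 µM dexamethasone, a glucocorticoid, 20 nM insulin and 1 nM T3, a thyroid hormone. Growth medium with insulin and T3 at the same doses followed until day 8. The white line received 0.5 mM IBMX, 1 µM dexamethasone and insulin at 1 µg/mL for 3 days, then insulin alone for 2 days and plain growth medium until day 10, with neither indomethacin nor T3. The labels name no genotype, strain or clone of the brown cells, and do not say whether the arrays of a group came from separate cultures. P-values therefore measure the spread between these arrays, which may be technical. Day 0 and day 8 cells also differed in hormones and time in culture, so differentiation and medium cannot be told apart. In such bulk RNA a smaller share of cells and less RNA per cell cannot be told apart either.

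Brown adipocytes burn fatty acids and sugar in densely packed mitochondria, and the uncoupling protein Ucp1 lets the energy leave as heat. Their precursors are fibroblast-like cells that lay down collagen-rich matrix and answer to Wnt, BMP, Hedgehog and growth factor signals. Adipogenesis replaces that programme with one of lipid storage, lipid oxidation and hormone sensing, under control of Pparg and the C/EBP factors.

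Of the 13746 genes tested, 3734 were called higher in brown adipocytes and 4328 lower at an adjusted p under 0.05 (limma, Benjamini-Hochberg), which is 27.2% and 31.5%. At least 2-fold calls were 1327 higher (9.65%) and 1726 lower (12.6%), and adipocyte and preadipocyte arrays were free of overlap for 65.2% of genes. The median change over all genes tested was -0.029. These shares are the background against which each list below is read. Scaling the arrays to their spiked hybridization controls moved that median to -0.22 and the split to 2630 higher against 5615 lower, so that 31.9% of calls were rises in place of 46.3%. Changes below are relative to a median near 0, and small ones depend on that scaling. A gene whose arrays in a group all lay at or under the 40th percentile of the array, 37 to 41.2, is called dim there, and its fold is given as a lower bound.

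The labels were checked against defining genes. Of 12 adipocyte genes tested, 10 were called higher and none lower. Pnpla2, the lipase that starts triglyceride breakdown, read 598, 489 and 523 on the preadipocyte arrays and 9849.7, 8603 and 9308 on the adipocyte arrays (4.07, SE 0.089, adjusted p = 3.64e-10). Most adipocyte genes were already expressed at day 0. Of the 12, 11 lay above the level that defines dim on all 3 preadipocyte arrays, and only Lep, the hormone leptin, was dim. The summed signal of the list went from 78332 to 91742 in preadipocytes up to 162579 to 170025 in adipocytes. Adipoq, the hormone adiponectin, read 19089, 20791 and 16205 before and 26904, 26089 and 26002 after differentiation (0.50, adjusted p = 0.085), and Lpl, lipoprotein lipase, read 27494, 28341 and 22977 and then 28625, 27958 and 28065. Preadipocyte and adipocyte arrays overlapped for Lpl and not for Adipoq, and neither was called. Car3, a carbonic anhydrase of fat and muscle, stood at 23649.6 ± 1523 (SD, n = 3) already in preadipocytes and was not called either (adjusted p = 0.628), although the mean of all its probe sets was.

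Of 13 brown fat genes tested, 11 were called higher. Ucp1 itself read 30.5, 22.8 and 1.66 and then 333, 468 and 346. It was dim in preadipocytes and at least 9.62-fold higher in adipocytes (adjusted p = 4.62e-06). Cidea, a lipid droplet protein, was dim before as well and at least 172-fold higher after. Dio2, which activates thyroid hormone, read 21.7, 43.5 and 45.3 and then 45.6, 45.8 and 26.7, overlapped and was not called. Zic1, a transcription factor of brown precursors, read 4396, 4134 and 5092 and then 3984, 3784 and 3600.4 and was not called, and Lhx8 was dim on all arrays. Among 12 preadipocyte genes tested, 11 were called lower and none higher. The progenitor receptors Pdgfra and Pdgfrb changed by -5.23 and -3.70.

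Markers of other cells moved as well. Of 9 skeletal muscle markers tested, 4 were called higher and 4 lower, and 12 of 19 on the array were dim in adipocytes, among them Myod1, Myog and the heavy chains Myh1, Myh2 and Myh4. Mb, myoglobin, which brown fat also makes, read 19.6, 33.7 and 3.18 before and 14602, 17226 and 14180.3 after and was at least 389-fold higher. In adipocytes it made up nearly all of the muscle list's summed signal, which went from 765 to 940.2 up to 15095 to 17876. The summed signal of 10 smooth muscle and pericyte markers went the other way, from 7555 to 8633 down to 1544 to 1878, and that of 8 chondrocyte markers from 1949.6 to 2406 down to 349.8 to 412. Members were divided: of 9 smooth muscle markers tested 5 were lower and 3 higher, and of 6 chondrocyte markers 4 were lower and 1 higher. Of 12 macrophage markers, 8 were tested and 3 were called lower, with a summed signal of 619 to 705 before and 504 to 547 after, and the pan-leukocyte gene Ptprc was dim in both groups. Of 2 endothelial markers tested none was called, and Pecam1, Tek and Vwf were dim throughout. Of 3 osteoblast markers 1 was lower, and of 7 neuronal and Schwann markers 3 were higher and 1 lower. The part of such cells in the lists below was not tested.

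Outside the classic thermogenic genes, the 25 largest rises included a channel, receptors, transporters and enzymes. Lrg1, a secreted leucine-rich glycoprotein and the subject of the study, was dim at 2.05, 6.22 and 5.75 and read 1004, 1086 and 1003 after, at least 26.2-fold higher (adjusted p = 1.84e-10). Ano1, a calcium-activated chloride channel, read 64.5, 64.1 and 87.9 on the preadipocyte arrays and 3538, 3392 and 3250.3 on the adipocyte arrays. The groups lay far apart, with a change of 5.28 (SE 0.23, adjusted p = 2.3e-08). Acvr1c, a type I receptor for activin-like ligands also called ALK7, went from 138, 97.2 and 98.6 to 3283, 3415 and 3557 (4.77, SE 0.16, adjusted p = 4.97e-09). Itga6, a laminin-binding integrin, went from 141, 79.2 and 137 to 3470.1, 3615 and 3481 (4.75, SE 0.16). For each of these 3 genes every adipocyte array stood far above every preadipocyte array.

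The amino acid transporter Slc36a2 read 209.6, 165 and 201 and then 6824, 6661 and 6607 (5.02, SE 0.29, adjusted p = 1.66e-07). Ces1d, a carboxylesterase that hydrolyses stored triglyceride, was dim in preadipocytes at 21.8, 18.3 and 16.6 and read 3450.5, 3529 and 3550.0 in adipocytes, at least 89.4-fold more (adjusted p = 8.01e-11). Depp1, a gene induced by FOXO factors, read 75.8, 42.1 and 13.8 and then 4878, 4333 and 2603 (6.14, SE 0.41). Replicate 3 was the lowest of each group, and adipocytes lay above preadipocytes on every array. Rgs7, which switches off G proteins, went from 5.87, 15.5 and 37.2 to 1068, 1116 and 1154 (5.09, SE 0.35).

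Single enzymes of glycogen, ceramide and acyl-CoA handling were among the 25 as well. Gbe1, the glycogen branching enzyme, rose by 4.66 (SE 0.15), Acer2, an alkaline ceramidase, by 4.69 (SE 0.13), and Acsm3, a medium-chain acyl-CoA synthetase that was dim before, by at least 22.3-fold. Adig, which promotes fat cell formation, and Apoc1, an apolipoprotein, rose by 5.04 and 4.51. Syn2, a synaptic vesicle protein, and Eppk1, a cytolinker of keratin filaments, rose by 4.72 and 4.55. Outside the 25, Nrg4, a secreted epidermal growth factor-like protein of brown fat, read 47.9, 40.1 and 36.5 before and 908, 1006 and 1017 after, a change of 4.11 (SE 0.16).

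**Figure D1:**
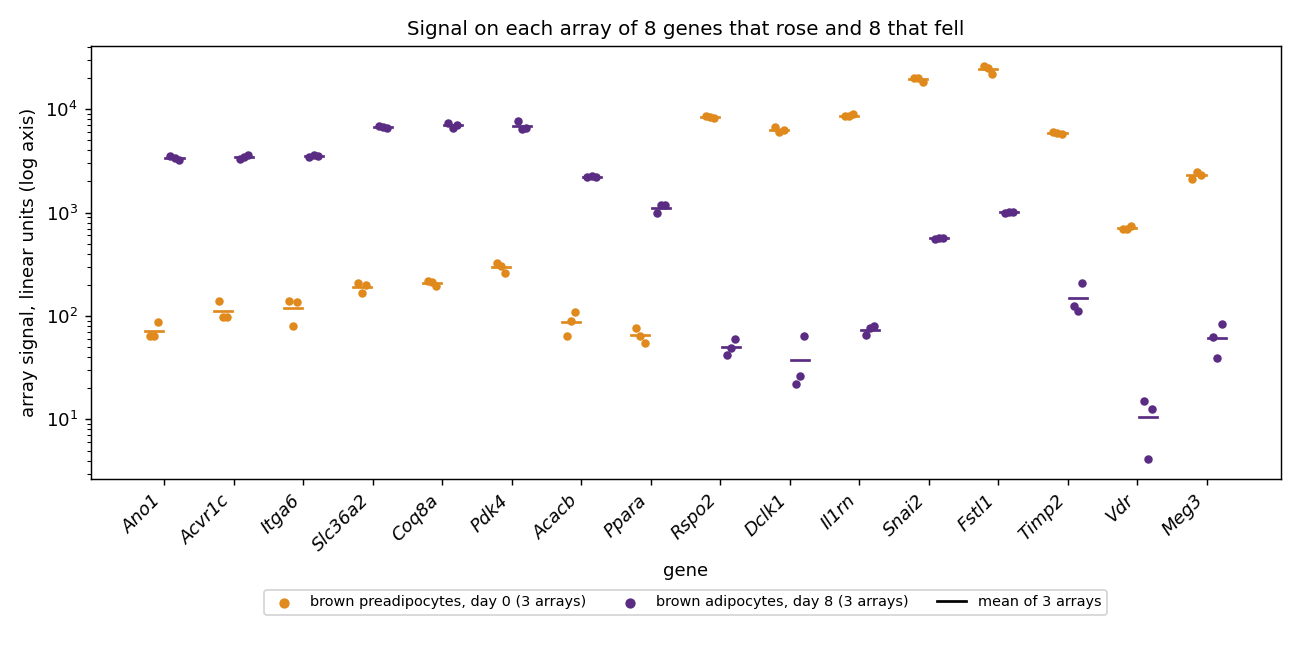
Array signal in linear units on a log axis for 8 genes that rose and 8 that fell, with each brown preadipocyte array (orange) and each brown adipocyte array (purple) as a point and the group mean as a bar. Points of the groups stand apart for every gene shown, and the spread within a group is widest where the signal is lowest, as for Vdr in adipocytes (15.1, 4.15 and 12.6).

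Secreted proteins and proteins of cell shape and adhesion were among the 25 largest falls. Rspo2, a secreted protein that amplifies Wnt signals, read 8519, 8385 and 8205 on the preadipocyte arrays and 42.2, 49.1 and 60.2 on the adipocyte arrays (-6.99, SE 0.33, adjusted p = 4.21e-08). Il1rn, the natural antagonist of the interleukin-1 receptor, went from 8520.5, 8531 and 8932 to 65.2, 77 and 79.6 (-6.60, SE 0.13, adjusted p = 2.6e-10). Dclk1, a kinase that binds microtubules, went from 6703, 6060.1 and 6230.4 to 22.1, 26.1 and 63.6 (-6.98, SE 0.23). In each of the 3, every preadipocyte array lay far above every adipocyte array, and the adipocyte arrays were near the low end of the scale.

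The amino acid transporter Slc38a4 fell by 6.34 (SE 0.11), opposite to Slc36a2. Srpx2, a secreted sushi-repeat protein, read 2598, 2545 and 2258 and then 33.5, 23 and 18.4, so that preadipocytes were at least 62.9-fold higher than the dim adipocytes. Has2, which makes the matrix sugar hyaluronan, fell by 5.31 (SE 0.24), and Snai2, a repressor of epithelial genes, went from 19839, 20131 and 18214 to 550.4, 568 and 572 (-5.06, SE 0.076, adjusted p = 8.01e-11). Pdgfra, Dab2, an endocytic adaptor, and Phldb2, which anchors microtubules near adhesion sites, changed by -5.23, -5.32 and -5.41. Imprinted transcripts, picked after their values were seen, were low in adipocytes: Meg3 went from 2101, 2439.6 and 2324 to 63.1, 38.9 and 83.8 (-4.93, SE 0.23), and Rian and Mest changed by -5.03 and -4.35.

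Genes that build mitochondria rose in most of the lists examined. Of 12 genes for coenzyme Q, the lipid that carries electrons between respiratory complexes, 11 were called higher and none lower, with a median change of 0.86. The 18 genes of iron handling and iron-sulfur cluster assembly had 17 called higher and none lower (median 0.59), and 7 of 8 complex I assembly factors rose (median 0.54), or 4 without less specific probe sets, those whose design allows matches to several transcripts. Against 27.2% for all genes, these shares were high, and their medians lay above -0.029. The rise was not confined to the brown line. In white cells 10 of the 12 coenzyme Q genes and 15 of the 18 iron genes were called higher (medians 0.98 and 0.72). Complex I assembly factors rose there in 4 of 8 cases and fell in 1 (median 0.20).

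Coq8a, an atypical kinase that coenzyme Q synthesis needs, had the largest change of its list. It read 217, 213 and 196 before and 7273, 6571 and 6969 after (4.95, SE 0.32, adjusted p = 4.59e-07). The methyltransferase Coq5, the lipid-binding Coq9 and Coq10b rose by 1.69, 1.55 and 1.28, less than Coq8a in each case. In the iron list the mitochondrial iron importer Slc25a28 rose by 1.87 (SE 0.13), the transferrin receptor Tfrc by 1.63 (SE 0.099) and the iron-sulfur assembly factor Iba57 by 1.41 (SE 0.15). Tfrc read 4712, 4163 and 4215 and then 13146, 14355 and 13163. Ndufaf4 and Ndufaf3 rose by 1.48 and 1.06.

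Mitochondrial shape and cristae genes rose in 16 of 20 cases and fell in 3 (median 0.94). Chchd10, a cristae protein, read 95.5, 151 and 142 and then 24572, 24515 and 23318 (7.40, SE 0.25), and Chchd3 and Apoo, subunits of the cristae junction complex, rose by 1.8 (SE 0.075) and 1.67 (SE 0.085). The genes that fell were Fis1, a receptor for the fission machinery (-1.06, SE 0.058), and the inner-membrane proteases Yme1l1 (-0.61) and Oma1 (-0.38). Fis1 went from 4050.3, 4146 and 3859.7 to 1846, 2037 and 1891, without overlap.

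For mitochondrial DNA and its transcription, 12 of 15 genes rose and 1 fell (median 0.66). The RNA polymerase Polrmt, the helicase Twnk and the rRNA methyltransferase Tfb1m rose by 1.02, 0.97 and 0.88, and Gabpb1, a subunit of the nuclear factor GABP, fell by 0.54. Import subunits of the Timm and Tomm families rose in 15 of 21 cases and fell in 2, or 4 with hybridization-control scaling. The intermembrane chaperones Timm10 and Timm8a1 rose by 1.60 (SE 0.063) and 1.36 (SE 0.061), while Timm22, the channel for carrier proteins, and the cytosolic cofactor Tomm34 fell by 0.54 and 0.38.

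Proteins of the mitochondrial ribosome changed less but in the same direction. Of 76 tested, 57 were called higher, 4 lower and 15 were not called, with a median of 0.39 and 4 rises of at least 2-fold. With hybridization-control scaling 35 were called higher and 11 lower, with a median of 0.18. The binding site of the nuclear respiratory factor NRF1, searched as GCGCA, any base and GCGC on both strands of the promoter windows described further on, was in 12 of 67 of these genes with a window (17.9%) and in 10.7% of all. Among the members called lower it was in 1 of 4. Mrps35 and Mrps18b rose by 1.04 (SE 0.053) and 1.05 (SE 0.083). Mrps6, by contrast, was very bright in preadipocytes, at 21215, 22211 and 19229, and lower in adipocytes, at 9873, 11569 and 10812 (-0.96, SE 0.081). Cytosolic ribosomal proteins did not share the rise. Of 41 tested, 2 were called higher, 16 lower and 23 were not called (median -0.17). That count of falls was 34 with hybridization-control scaling and 8 where probe sets of less specific design were left out.

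Among the Slc25 carriers of the inner mitochondrial membrane, 26 of 40 rose and 6 fell, or 10 with hybridization-control scaling. Slc25a33, a pyrimidine nucleotide carrier, read 331, 370.0 and 309 and then 2685, 2884 and 2802 (2.99, SE 0.077). The calcium-regulated ATP-magnesium/phosphate carriers moved in opposite directions: Slc25a23 was dim before, at 17, 37.1 and 28.7, and at least 11.5-fold higher after, at 414, 442 and 505, whereas Slc25a24 fell from 2415, 2486 and 2842 to 767, 858 and 878 (-1.61, SE 0.11). The aspartate/glutamate carriers Slc25a12 and Slc25a13 also fell, by 1.18 (SE 0.095) and 1.35 (SE 0.11).

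**Figure D2:**
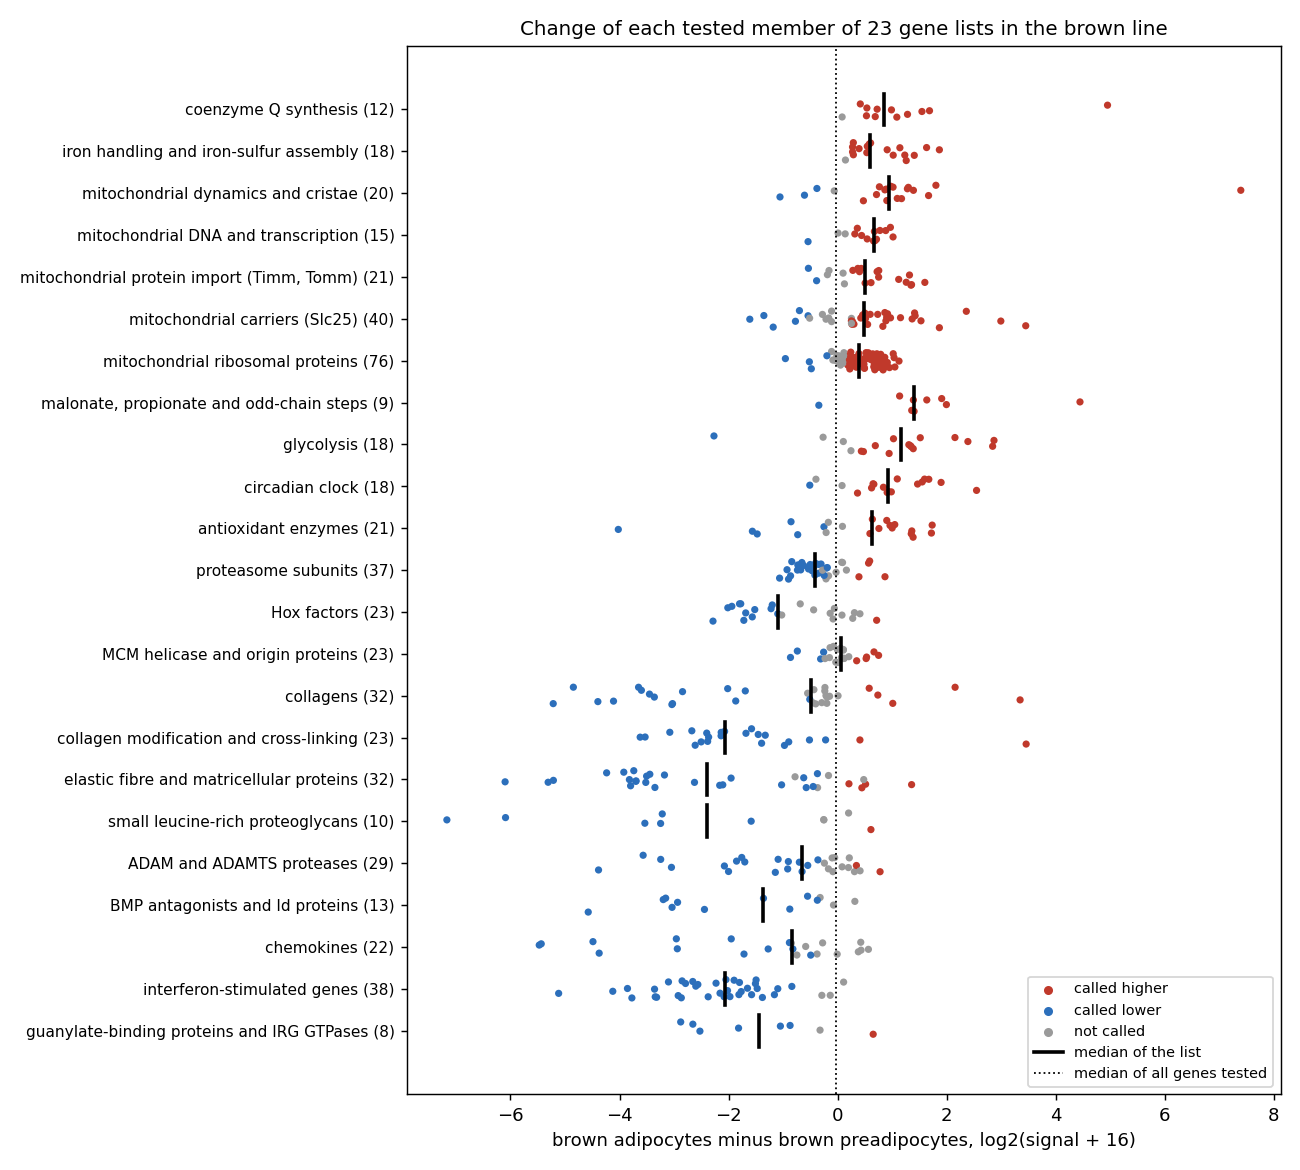
Change from brown preadipocytes to brown adipocytes, in log2(signal + 16), of each tested member of 23 gene lists, with the number tested in brackets. Red points were called higher, blue lower and grey not called at an adjusted p under 0.05, black bars are list medians and the dotted line is the median of all genes tested (-0.029). Mitochondrial and glycolytic lists lie mostly to the right of that line, with 11 of 12 coenzyme Q genes called higher, and matrix and interferon lists to the left, with 35 of 38 interferon-stimulated genes called lower.

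Genes of sugar and short-chain acid metabolism rose. Of 18 glycolytic genes, 14 were called higher and 1 lower (median 1.17). Without less specific probe sets 8 were higher. Pfkp, a phosphofructokinase, went from 407, 426 and 350.1 to 2473, 3476 and 3053 (2.87, SE 0.12), and hexokinase Hk2 from 604, 647 and 610.0 to 4796, 4393 and 4475 (2.84, SE 0.081). Pfkfb3, which makes the activator of phosphofructokinase, rose by 2.39 (SE 0.19). The single fall was Eno2, the neuronal enolase, which became dim in adipocytes and was at least 3.65-fold higher in preadipocytes. Pdk4, which blocks entry of pyruvate into the citric acid cycle, read 326, 306 and 261 and then 7706, 6482 and 6614 (4.47, SE 0.10, adjusted p = 4.62e-10).

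In the list of malonyl-CoA and propionate handling, 8 of 9 genes rose and 1 fell (median 1.40). Acacb, the acetyl-CoA carboxylase whose product restrains fatty acid entry into mitochondria, read 63.7, 89.6 and 110.4 and then 2196, 2248 and 2186 (4.45, SE 0.16). Its cytosolic counterpart Acaca, which supplies fatty acid synthesis, rose by 1.40 (SE 0.09), and Mlycd, which destroys malonyl-CoA, by 1.64 (SE 0.17). Pcca, of propionyl-CoA carboxylase, and Mmaa, a cobalamin chaperone, rose by 1.91 and 2.00. 

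Antioxidant enzymes split. Of 21 tested, 12 rose, 6 fell and 3 were not called. Mitochondrial Sod2 and Prdx3 rose by 1.72 (SE 0.056) and 1.39 (SE 0.075), and peroxisomal catalase, Cat, by 1.74 (SE 0.17). The peroxidases Gpx8 and Gpx7, both of the endoplasmic reticulum, fell by 4.02 (SE 0.13) and 1.56 (SE 0.07), Gpx8 from 4163, 4385 and 3748 to 278, 192 and 249. Nnt, the mitochondrial transhydrogenase that makes NADPH, went the other way from Sod2, from 1112, 995 and 1426 to 141, 139 and 143 (-2.91, SE 0.14). The metal-binding metallothioneins Mt1 and Mt2 rose by 1.88 and 2.56.

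Clock genes rose as a group, 15 of 18 with 1 lower (median 0.92). The repressor Bhlhe40 read 531, 648 and 509 and then 3629, 3888 and 2669.7 (2.55, SE 0.14), and the period gene Per2 rose by 1.90 (SE 0.10). Arntl, the activator Bmal1, was the member that fell (-0.51, SE 0.097, adjusted p = 0.00107), a call lost where less specific probe sets were left out. Hour of harvest is not given in the labels, and its part was not tested.

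Genes known from low oxygen split. Of 22 tested, 11 rose, all by at least 2-fold, and 4 fell. Egln3, an oxygen-sensing prolyl hydroxylase, read 61.8, 92.9 and 69 and then 1397, 2704 and 1441 (4.31, SE 0.23), Bnip3, a mitophagy receptor, went from 2780.4, 2776 and 2755 to 22139.8, 20472 and 19470.5 (2.89, SE 0.072), and Car9, a carbonic anhydrase that was dim before, rose at least 11.4-fold. The peptide hormone gene Adm fell from 1317, 1348 and 1244 to 81.1, 46.6 and 79.1 (-3.98, SE 0.19), and the collagen prolyl hydroxylases P4ha2 and P4ha1 changed by -2.14 and -0.97. Hif1a, named after its value was seen, changed by -0.86 (SE 0.067).

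Membrane lipid genes were divided. Of 21 phospholipid genes, 11 rose and 6 fell. That was 4 rises without less specific probe sets, and 9 rises and 9 falls with hybridization-control scaling. Of 20 sphingolipid enzymes 8 rose and 9 fell, with a median that changed sign with the scaling (0.003 and -0.20). Crls1, which makes cardiolipin, the lipid of the inner mitochondrial membrane, read 1066, 1504 and 1498 and then 9457, 8386 and 9297 (2.74, SE 0.12). Chpt1, of phosphatidylcholine synthesis, rose by 1.34, while Pcyt1b, an isoform of its rate-setting enzyme, was dim afterwards and at least 3.92-fold higher before. Of 70 cytochromes P450 on the array, 34 were too dim to test. The 36 tested had 13 members up and 4 down, and 7 up with a filter at the 60th percentile. A member bright only in adipocytes passed the filter because of that, so the split rests partly on the filter. Cyp27a1, a sterol hydroxylase, rose by 2.98 (SE 0.43), and Cyp1b1, which oxidises steroids and retinoids, fell from 10255, 9823 and 9699.9 to 3796, 3339 and 3528 (-1.48, SE 0.063).

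Most receptors for metabolites and hormones that could be tested rose. Of 21 on the array, 13 were tested, 8 were called higher, each by at least 2-fold, and 2 lower. A member bright only in adipocytes passed the filter for that reason. Mc2r, the receptor for corticotropin, read 20.5, 23.9 and 38.2 and then 996, 869 and 909 (4.45, SE 0.20). The succinate receptor Sucnr1 and the receptor for nicotinate and hydroxybutyrate, Hcar2, were dim before and rose at least 7.37-fold and 5.34-fold. Agtr1a, an angiotensin II receptor, fell from 449, 466 and 429 to 49.2, 6.86 and 40.6 (-3.40, SE 0.43), and the prostaglandin E2 receptor Ptger4 changed by -1.76 (SE 0.13). Insr, the insulin receptor, rose by 2.05 (SE 0.11), and Pde3b, which breaks down cyclic AMP in response to insulin, went from 699, 689 and 735 to 15844, 16889 and 15519 (4.48).

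Collagens fell unevenly, beside the lower sums of smooth muscle and chondrocyte markers given above. Of 42 on the array, 32 were tested, of which 15 were called lower, 5 higher and 12 were not called. Fibrillar Col1a1 read 3765, 3547 and 4368 and then 69.7, 102 and 97.2 (-5.22, SE 0.13), Col1a2 went from 23158, 20707 and 19618 to 674, 797 and 690.1 (-4.85), and Col5a1 changed by -4.40 (SE 0.13). Col27a1, a minor fibrillar collagen, did the opposite, from 209, 219 and 294 to 2588, 2478 and 2653 (3.35, SE 0.13). Basement membrane Col4a1 and Col4a2, named after their values were seen, rose by 0.74 and 0.58. Laminins, also of the basement membrane, rose in 5 of 9 cases and fell in 2. Lama4, the laminin chain around fat cells, went from 558, 757 and 768 to 3211, 3454 and 3627 (2.29, SE 0.13), Lama5 and Lamb3 rose by 2.00 and 2.82, and Lama3, dim afterwards, was at least 2.58-fold higher before.

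Enzymes that modify and cross-link collagen fell. Of 23 tested, 21 were called lower and 2 higher, with a median of -2.07, against 31.5% lower for all genes. Lox, lysyl oxidase, read 20661, 20672 and 18858 and then 2258, 2620.0 and 2223 (-3.08, SE 0.096, adjusted p = 2.71e-09), and its relative Loxl3 and the prolyl hydroxylase P3h2 changed by -3.53 and -3.62. Tgm2, a transglutaminase that cross-links many proteins, rose from 447, 506 and 404 to 4520.2, 5513 and 5360.2 (3.46, SE 0.18). The other rise was that of the lysyl hydroxylase Plod1 (0.41, SE 0.14, adjusted p = 0.028), a call lost on leaving out any of 4 arrays. The brown change lay below the white change for 21 of the 23 (limma, adjusted p under 0.05 for the difference), where 27.4% of all genes were lower and 23.6% higher by that test.

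Elastic fibre and matricellular proteins, which tune how cells sense matrix, fell in 24 of 32 cases and rose in 4 (median -2.39). Postn, periostin, changed by -6.10 (SE 0.14), and Smoc2, dim afterwards, was at least 29.1-fold higher before. Fbln5, an elastic fibre organiser, rose from 789.7, 791 and 799 to 2597, 1965 and 1709 (1.36, SE 0.13), a call lost with the mean of its probe sets. Of 10 small leucine-rich proteoglycans tested, 6 fell and 1 rose. Bgn, biglycan, went from 19097, 19123 and 16001 to 1945, 1906 and 1804 (-3.25, SE 0.085), Aspn, asporin, changed by -6.09, and Fmod, fibromodulin, was dim afterwards. Ccn1 and Ccn2, matricellular targets of mechanical signalling named after their values were seen, changed by -4.70 and -2.27.

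Several matrix proteases and their inhibitors fell. Mmp2, a gelatinase, read 3379, 3117 and 2768 and then 85.5, 54.1 and 68.5 (-5.20, SE 0.13), and Timp2, which both inhibits and helps activate it, read 5950.0, 5844 and 5683 and then 125, 112 and 209 (-5.19, SE 0.18). Mmp14, the membrane protease that activates Mmp2, changed by -2.96 (SE 0.082). In all, 7 of 14 tested fell and 2 rose, namely Timp4, at least 2.44-fold from a dim start, and Mmp11 (1.31). Of 29 ADAM and ADAMTS proteins tested, 17 fell and 2 rose, with Adamts1 and Adamts5, which cut proteoglycans, at -4.39 (SE 0.12) and -3.24 (SE 0.10).

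Genes of developmental pathways changed unevenly, where 31.5% of all genes were called lower. Of 15 secreted Wnt modulators, 10 fell and none rose; besides Sfrp2 (-7.97) and Rspo2, Sfrp4 went from 1317, 1154 and 1197 to 93.9, 72.9 and 95 (-3.59, SE 0.31). Wnt ligands and Frizzled receptors fell in 8 of 22 cases, near the share of all genes, and rose in 2 (median -0.21). The receptors Fzd2 and Fzd1 changed by -3.31 (SE 0.11) and -2.07 (SE 0.086), while Fzd4 rose by 0.71 (SE 0.18).

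For the BMP antagonists and Id proteins, 10 of 13 fell and none rose, with 6 falls without less specific probe sets. Fstl1, a secreted follistatin-like protein, read 26305, 25133 and 21877 and then 997, 1016 and 1009.5 (-4.57, SE 0.085, adjusted p = 2.02e-10), and Grem1, which traps BMPs, changed by -3.15 (SE 0.26). The Id proteins, targets of BMP signals that hold back basic helix-loop-helix factors, included Id4, which changed by -3.20, and, named after their values were seen, Id3 (-3.04) and Id1 (-1.36). Ligands of the BMP and TGF-beta families were divided, with 5 of 18 lower and 4 higher (median -0.11), where 31.5% of all genes were lower. Among the falls, Bmp4 went from 1032, 835 and 575 to 44, 2.31 and 27.6 (-4.47, SE 0.50), and Tgfb2 changed by -4.14 (SE 0.34).

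Hedgehog genes fell in 8 of 11 cases, with no rise: the co-receptors Boc and Gas1 by 2.85 (SE 0.15) and 2.44 (SE 0.17), the transducer Smo by 2.14 (SE 0.078) and the effector Gli2 by 1.87 (SE 0.17). Among ephrins and Eph receptors 10 of 15 fell and 1 rose, with Epha7 at -3.46 (SE 0.23). In the insulin-like growth factor axis 10 of 15 fell, including the binding protein Igfbp6 (at least 12.1-fold higher before), and Insr was the 1 that rose. Of 19 genes of the list of PDGF, VEGF and related ligands and receptors, 11 fell and 4 rose. Vegfa and Vegfb, which act on vessels, rose by 1.81 (SE 0.098) and 1.11 (SE 0.12), and the lipase inhibitor Angptl4 by 3.01 (SE 0.077). FGF ligands and receptors fell in 3 of 17 cases and rose in 2 (median 0.19), where 31.5% of all genes were lower. Under hybridization-control scaling there were 0 rises and a median of -0.028. Of the falls, Fgf7, a growth factor made by mesenchyme for epithelium, went from 5014, 5133 and 5869 to 114, 137 and 139.8 (-5.20).

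Chemokines fell in 12 of 22 tested cases and none rose. Ccl5 and Ccl7, which attract leukocytes, went from 1412, 1351 and 1499 to 39.96, 5.32 and 12.3 (-5.47, SE 0.50) and from 2965, 3293 and 3198 to 103, 40.3 and 42.5 (-5.44, SE 0.26). Of 59 interleukins and receptors on the array 32 were tested, of which 11 fell and 7 rose (median -0.11). The share that fell was near the 31.5% of all genes, and 27.2% of all genes were higher. Il6 read 642, 705 and 633 before and was dim after, so preadipocytes were at least 16.8-fold higher, while its receptor Il6ra rose by 1.89 (SE 0.16). The receptor of interleukin-1, Il1r1, fell by 2.97 (SE 0.15) alongside its antagonist Il1rn. Prostaglandin genes fell in 7 of 12 cases and rose in 2; Ptgs2, the inducible cyclooxygenase that indomethacin blocks, was dim in adipocytes and at least 9.41-fold higher before, and Ptgr2 and Ptges2 rose by 1.64 and 1.46.

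Interferon-stimulated genes were high in preadipocytes and fell. Interferons turn these antiviral genes on through a short DNA element near the gene start. Of 38 tested, 35 were called lower, none higher and 3 were not called, with 34 falls of at least 2-fold and a median of -2.06. Over all genes 31.5% were called lower and 12.6% lower by at least 2-fold. A smaller interferon list of these data was known when the list was drawn up.

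Ifit1, which binds foreign RNA, read 6798, 6282 and 5341 on the preadipocyte arrays and 129, 215 and 148 on the adipocyte arrays (-5.12, SE 0.18, adjusted p = 4.97e-09). Its neighbour Ifit3 went from 5531, 4605 and 4062 to 237, 358 and 192 (-4.12, SE 0.25). Ifi204, a DNA sensor, was dim afterwards and at least 14.2-fold higher before. Usp18, which removes the ubiquitin-like Isg15, and Rsad2, viperin, both named after their values were seen, changed by -3.35 (SE 0.28) and -2.85 (SE 0.31). The factors Irf7 and Irf9 changed by -2.37 (SE 0.42) and -2.05 (SE 0.088). Preadipocyte replicate 3 was the lowest of its group for Ifit1, Ifit3, Usp18, Rsad2, Irf7 and Irf9.

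The guanylate-binding proteins and immunity-related GTPases, which attack vacuoles of intracellular parasites, had 6 of 8 members lower and 1 higher. Iigp1 read 5061, 4484 and 4149.7 and then 662, 587 and 570.5 (-2.88, SE 0.13), and Irgm1 read 2508, 2237 and 1973 and then 397, 359.5 and 366 (-2.53, SE 0.11). Gbp2 was the member that rose, from 1222, 1059.8 and 943 to 1805, 1699 and 1573 (0.65, SE 0.14, adjusted p = 0.00227). MHC class I genes, which present antigen, did not share the fall. Of 9 MHC class I genes tested, 5 rose and 2 fell, with H2-K1 and H2-D1 up by 1.46 (SE 0.077) and 1.03 (SE 0.09), and the immunoproteasome subunits Psmb9 and, named after its value was seen, Psmb8 up by 0.87 and 0.39, the latter call lost with hybridization-control scaling. H2 genes are near-identical copies that probe sets may not separate: 2 rises were left without the less specific probe sets and 3 with hybridization-control scaling.

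The promoters of these genes are shown because their members moved together and their known element can be read in sequence. Promoter windows of RefSeq (250 bases before to 50 after each gene's start, build GRCm38.p6) were searched for the element's core, which is GAAA, any 2 bases and GAAA again, on both strands, matches overlapping or not. The core was in 13 of 27 interferon-stimulated genes that had a window (48.1%), in 6 of 6 guanylate-binding proteins and IRG GTPases, and in 404 of 11027 tested genes (3.66%). Such a match is a description of letters and shows no binding. Stretches just before the start are given 5′ to 3′ on the gene's strand, with matches to the core or its complement in capitals.
Ifit1, chr19:34640759-34640888, plus strand: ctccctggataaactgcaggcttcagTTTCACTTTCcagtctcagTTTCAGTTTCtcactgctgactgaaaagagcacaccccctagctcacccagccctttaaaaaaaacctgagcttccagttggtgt
Ifit3, chr19:34583359-34583528, plus strand: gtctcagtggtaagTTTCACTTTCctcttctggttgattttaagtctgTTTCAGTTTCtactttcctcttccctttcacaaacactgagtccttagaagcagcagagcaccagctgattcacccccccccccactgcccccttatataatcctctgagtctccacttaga
Rsad2, chr12:26456453-26456582, minus strand: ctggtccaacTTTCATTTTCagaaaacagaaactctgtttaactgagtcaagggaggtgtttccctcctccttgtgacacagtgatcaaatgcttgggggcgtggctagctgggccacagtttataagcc
Irgm1, chr11:48871421-48871550, minus strand: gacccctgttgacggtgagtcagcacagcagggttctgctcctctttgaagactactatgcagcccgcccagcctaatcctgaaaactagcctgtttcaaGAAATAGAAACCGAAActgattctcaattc
Gbp2, chr3:142620533-142620662, plus strand: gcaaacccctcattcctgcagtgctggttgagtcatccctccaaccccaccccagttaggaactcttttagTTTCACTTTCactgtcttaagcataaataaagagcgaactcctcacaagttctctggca
Ifit1 and Ifit3, which fell most of the list, each hold a pair of matches within 156 bases of the start. Gbp2, which rose by 0.65, holds the core as well, at 59 to 50 bases before its start. Only genes with a match are printed here, so these stretches cannot tell the gene that rose from those that fell. Of the interferon-stimulated genes called lower, 12 of 25 with a window held the core.

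The difference between the lines was tested for the same genes. The brown change was below the white change for 35 of 38 interferon-stimulated genes and above it for 2, with a median difference of -2.60, and below it for all 8 guanylate-binding proteins and IRG GTPases (limma, adjusted p under 0.05), against 27.4% of all genes lower. In white cells 18 of the 38 rose and 6 fell, where 30% of all genes were called higher and 31.2% lower. Ifit1 changed by 0.63 in white cells, a difference of -5.74 (SE 0.25, adjusted p = 5.45e-08). White preadipocytes read 57.5, 49 and 38.5 and white adipocytes 75.4, 83.1 and 89.8 for Ifit1. For Usp18 they read 20.4, 24 and 4.53 and 187, 168 and 89.1. The brown preadipocyte arrays stood above the other 3 groups for both genes. Of 8 macrophage markers tested 3 were lower, with a list median of -0.001, where 31.5% of all genes were lower. Cd14, Cd68, Csf1r, Lyz1 and Lyz2 were above the 40th percentile on every brown preadipocyte array. On every brown adipocyte array Cd14, Cd68, Csf1r and Fcer1g were above it. Ptprc, Aif1, Itgam and Tyrobp were dim in brown cells throughout. The part of such cells in the interferon result was not tested.

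**Figure D3:**
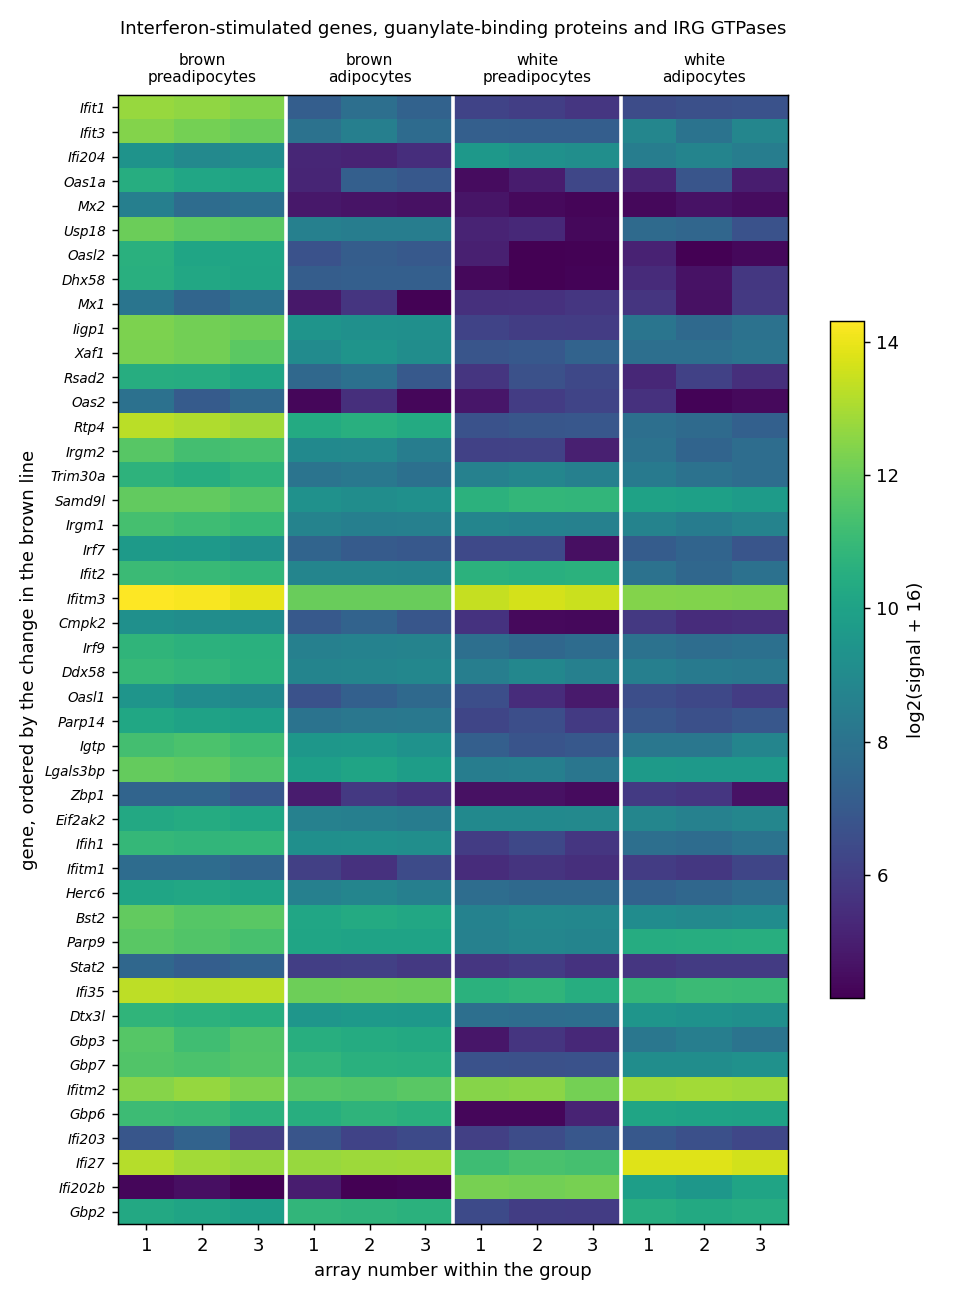
Level of 46 interferon-stimulated genes, guanylate-binding proteins and IRG GTPases on each of 12 arrays, as log2(signal + 16) in colour, with genes ordered by their change in the brown line and arrays grouped by cell type. Brown preadipocytes are the brightest columns for most of the upper rows, such as Ifit1 (6798, 6282 and 5341 in linear units), and Gbp2 at the bottom rises in both lines (0.65 and 4.27).

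Few replication genes were called in the brown line, whereas most fell in the white one. Of 23 MCM helicase and origin genes, 5 were called higher, 4 lower and 14 were not called, none by 2-fold, with a median of 0.056 (-0.16 with hybridization-control scaling, and 8 called lower). Without preadipocyte replicate 2 the falls numbered 2. Mcm5, of the helicase ring, read 9191, 9343 and 8459 before and 8527, 8325 and 8748 after, overlapping (adjusted p = 0.332), and Mcm3, named after its value was seen, 6145, 5716 and 6316 and then 6679.6, 6323 and 6564 (adjusted p = 0.168). Cdt1, which loads the helicase, rose by 0.75 (SE 0.078), and its inhibitor geminin, Gmnn, named after its value was seen, by 0.52 (SE 0.087). An E2F site, searched as TTTCCCGC on both strands, was in 5 of 18 promoter windows of the list (27.8%) and in 2.25% of all. In white cells 20 of the 23 fell, where 31.2% of all genes were called lower. The brown change exceeded the white change for 20 of them, against 23.6% of all genes, and for Mcm5 by 4.87 (SE 0.089, adjusted p = 1.08e-09).

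**Figure D4:**
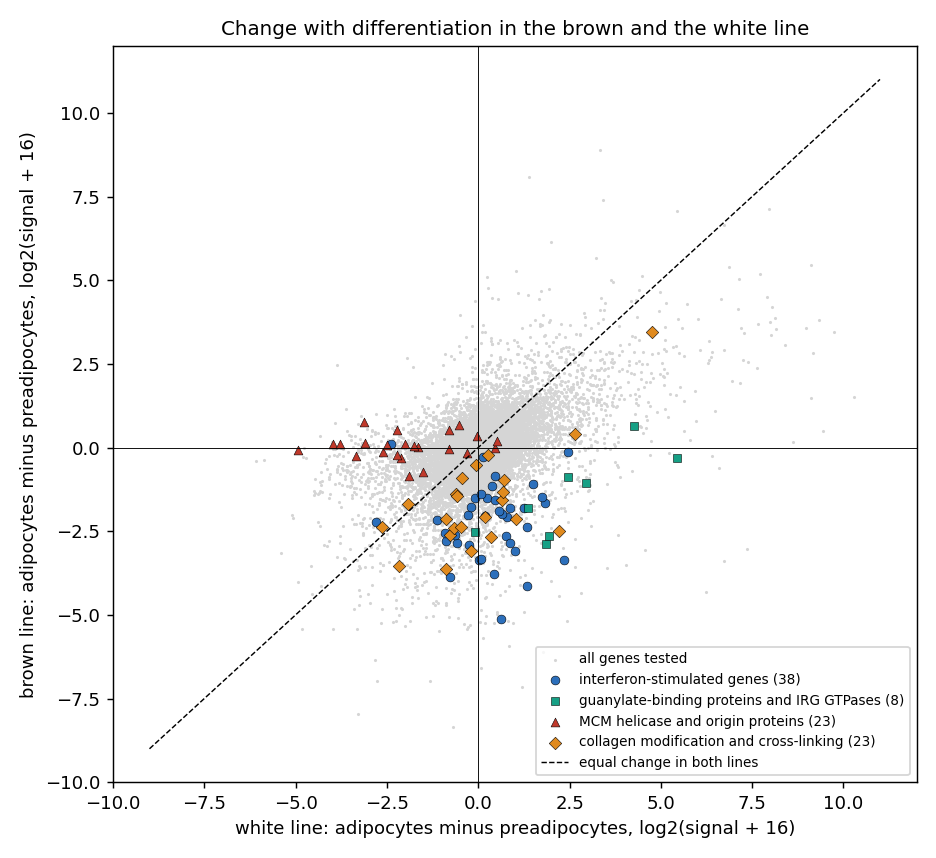
Change with differentiation in the brown line (vertical) against the white line (horizontal), both in log2(signal + 16), with all genes tested in grey and 4 lists in colour, and the dashed line where both lines changed alike. Most MCM and origin genes lie above the line, with brown changes near 0 (median 0.056) and a white median of -2.0, and most interferon-stimulated genes lie below it (brown median -2.06, white median 0.40).

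Most of the nuclear pore and proteasome genes that were called fell. Of 21 lamin and nuclear pore genes, 12 fell and 2 rose (median -0.24), with Nup107 at -1.04 (SE 0.099) and the inner nuclear membrane protein Emd, emerin, at -1.15 (SE 0.081). Nup210, a pore membrane protein, was the exception, dim at 30.8, 33.5 and 31.9 before and 228, 278 and 296 after, at least 6.76-fold higher. Proteasome subunits fell in 26 of 37 cases and rose in 4, by a median of -0.42 and with 1 fall of at least 2-fold, Psmd10 (-1.06, SE 0.069). In the endoplasmic reticulum 9 of 23 chaperone and stress genes rose and 10 fell. The chaperones Calr and Pdia3 changed by -1.09 and -1.03, and Dnajb9 and Herpud1, of the degradation pathway, rose by 2.08 (SE 0.086) and 1.34 (SE 0.06).

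Most members of a list that pools transcription factors of brown and of preadipocyte identity fell. Of 33 tested, 21 were called lower and 4 higher, the latter 2 with hybridization-control scaling (median -0.86). Besides Snai2, Prrx2, a mesenchymal homeobox factor, was dim afterwards and at least 13.1-fold higher before. Ebf2, which marks brown precursors, rose from 3062, 3173 and 3022 to 5517, 5858 and 5739 (0.88, SE 0.065). The brown fat gene Prdm16 rose by 0.69 (SE 0.18), a call lost in 1 alternative, and Zic1 was not called. Hox factors, which record position along the body axis, fell in 12 of 23 cases, each by at least 2-fold, and 1 rose. Hoxc4 went from 1439, 1621 and 1379 to 340.4, 258 and 278 (-2.29, SE 0.14), and Hoxa4 rose by 0.72 (SE 0.16).

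Nuclear receptors rose in 13 of 33 cases and fell in 6, where 27.2% of all genes were higher and 31.5% lower. Ppara, the fatty acid sensor, read 76, 63.4 and 55 and then 997, 1178 and 1174 (3.81, SE 0.14), and Vdr, the vitamin D receptor, did the reverse, from 696, 685 and 741 to dim values of 15.1, 4.15 and 12.6, at least 18.1-fold lower (adjusted p = 5.61e-09). Nr2f1, an orphan receptor, changed by -2.28 (SE 0.15). Among Krueppel-like factors 6 of 16 rose and 5 fell, the latter near the 31.5% of all genes. Their median changed sign with the scaling (0.012 and -0.094). Klf9, a glucocorticoid target, and Klf13 rose by 2.80 (SE 0.088) and 2.26 (SE 0.073), and Klf3 fell by 1.21 (SE 0.071).

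The arrays were alike within groups, with correlations of log2 signal of 0.98 to 0.982 among brown arrays of a group and 0.924 to 0.929 between the groups. RNA integrity was read from control probe sets at the 3' and 5' ends of a transcript. The 3'/5' ratio of beta-actin was 1.49 ± 0.0626 (SD, n = 3) in preadipocytes and 2.42 ± 0.0478 (SD, n = 3) in adipocytes (exact two-sided permutation p = 0.1, the smallest that 3 against 3 arrays allow), and that of Gapdh was 0.775 ± 0.0296 (SD, n = 3) and 0.814 ± 0.0189 (SD, n = 3) (exact p = 0.2). The transferrin receptor ratio, for which a probe set was below the 40th percentile on some array, was 1.41 ± 0.19 (SD, n = 3) and 1.75 ± 0.0409 (SD, n = 3) (exact p = 0.1), and that of pyruvate carboxylase 5.7 ± 0.902 (SD, n = 3) and 6.8 ± 0.762 (SD, n = 3) (exact p = 0.2). All 4 ratios were higher on average in adipocytes, and the part of RNA quality in the changes was not tested. The number of arrays limits the precision of every value here.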

How the data were processed

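Biotin-labelled RNA was hybridised to Affymetrix mouse 430 2.0 arrays, 3 for each of 4 groups. The intensity values in the deposited table are linear signals. Per the submitters' processing notes they came from the program Affymetrix Expression Console. The algorithm is not given in the sources used here, and the mean of each array after trimming 2% at each end was 500.003 to 500.004. Of 45101 probe sets, 34958 had 1 gene symbol, 932 several and 9211 were unnamed in the platform annotation. The probe set of highest mean stood for a gene. Genes above the 40th percentile of the array on at least 3 of 12 arrays were tested on log2(signal + 16) with limma 3.58.1 in R 4.3.3, lmFit and eBayes over 4 group means.

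The members and gene lists were chosen with earlier results of these data known, and of 118 lists counted, 65 and the marker lists of other cells are described. Genes could be named from the 25 largest changes each way, the 3 largest each way of a list, those at least 2-fold against a list's direction, lists of 12 or fewer, marker lists, and the 12 largest differences between the lines each way, where called and without overlap. 15 others are marked in the text. Pseudocounts, filters, scaling, probe set choices, the intensity trend, single arrays and a replicate block were varied.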

Additional observations from a re-analysis of the deposited data

Results flagged for a closer look

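The change with differentiation differed between the brown and the white line for many genes by the test of the difference itself (limma, adjusted p under 0.05), higher in brown for 3240 and lower for 3761 of 13746 genes. Line, induction mix, medium and day of harvest differed together and cannot be told apart.

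The 12 largest positive differences, in log2 units of brown minus white change, began with Cidea, at 6.68 (SE 0.55, adjusted p = 4.27e-06), followed by Npnt, a matrix ligand of integrins, at 6.34 and the peptide hormone gene Cck at 5.70. Myoglobin, Mb, stood at 5.56, Id2 at 5.49, Mcm5 at 4.87 and Rgs7 at 4.84. The organic anion transporter Slco4a1 stood at 4.77, cardiac troponin Tnnt2 at 4.73, the magnesium transporter Nipal1 at 4.67, the lipid phosphatase Mtm1 at 4.67 and the AMP deaminase Ampd3 at 4.62. Brown preadipocytes were dim for Cidea, Cck, Mb, Slco4a1 and Tnnt2, brown adipocytes for Cck and Tnnt2, white preadipocytes for Cidea and Rgs7, and white adipocytes for Rgs7 and Tnnt2, so these differences and their order rest partly on the floor. For Id2 and Mcm5 the white fall made up most of the difference, with white changes of -5.86 and -4.94 against -0.37 and -0.08 in brown cells. Over all settings Cck, Tnnt2 and Nipal1 also changed little in brown cells, by -0.83 to -0.15, -0.38 to 0.37 and 0.12 to 0.52. Npnt, Slco4a1, Mtm1 and Ampd3 rose there by 1.39 to 2.60, 0.49 to 1.86, 0.53 to 1.32 and 2.20 to 2.88, less than their differences. In Cidea, Mb and Rgs7 the brown rise, of 8.07, 8.88 and 5.09, exceeded the difference itself.

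The 12 largest negative differences held matrix genes that fell in brown cells. Aspn stood at -9.09, with a brown change of -6.09 and a white change of 3.00, osteoglycin, Ogn, at -8.36, Postn at -7.88, the growth factor pleiotrophin, Ptn, at -7.65 and dermatopontin, Dpt, at -7.63. Secreted proteins of other kinds were also among them. Apod, a lipid carrier, stood at -10.54, angiotensinogen, Agt, at -10.40, the antimicrobial peptide Camp at -10.13 and haptoglobin, Hp, at -7.62. Adipoq, at -8.95, G0s2, a lipase inhibitor, at -8.76 and Car3, at -8.45, changed by 0.50, 1.52 and 0.16 in brown cells, where Adipoq and Car3 were already bright at day 0. White preadipocytes were dim for Agt, Camp, G0s2, Car3 and Hp, and brown adipocytes for Apod and Camp, so their differences rest partly on the floor too.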

How the results depend on the processing

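Across 19 alternatives, 18 of 1235 recomputed counts of list members, taken in the direction that led each list, moved by over 1.5 times. Without a filter 5 FGF genes were lower. Against the leading direction counts were followed under the scalings alone. Those that moved are given beside the result, and other lists moved by 1 gene or by no more than 1.5 times. With hybridization-control scaling 35 mitochondrial ribosomal proteins, 3 MHC class I genes and 5 heme synthesis genes were higher, and 34 cytosolic ribosomal proteins and 8 MCM and origin genes lower. Leaving out less specific probe sets, which tests fewer genes, left 4 complex I assembly factors, 8 glycolysis, 2 MHC class I and 4 phospholipid genes higher, and 6 BMP and Id genes, 8 cytosolic ribosomal proteins and 3 complement genes lower. The filter at the 60th percentile left 7 cytochromes P450 higher and 5 serpins lower, the mean of probe sets left 3 MHC class I genes higher, and an adjusted p under 0.01 left 2 MCM and origin genes lower. Leaving out single arrays gave 2 to 4 such genes lower, the fewest without brown preadipocyte replicate 2. Where a cause is not named here, the cause was not tested. Of 6572 recomputed changes of genes eligible for naming, 80 lost a call, 11 gained one and 5 reversed. Without less specific probe sets Mrpl17 changed by 1.56, Prelp by -1.41 and Id2 by 0.27, and with the mean of probe sets Mrpl17 by 0.44 and Prelp by -0.40, against -0.52, 0.61 and -0.37, which shows that probe sets of these genes disagree. Adipoq was called higher with a pseudocount of 64, an intensity trend or the brown arrays alone.

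Leaving out each array in turn gave 3351 to 3545 genes called higher and 3984 to 4217 lower. Same-numbered arrays shared only a number, with correlations of their deviations of 0.00716, -0.00499 and -0.0263. With a replicate block 3668 genes were called higher and 4287 lower, 7806 of the 8062 calls were kept, and 1 gene eligible for naming, Col11a2, lost its call. Signals near the 40th percentile limit the small folds of dim genes.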

Other observations

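Some families outside the report's main groups also moved. Genes known as targets of the stress factor ATF4 rose in 9 of 18 cases and fell in 2 (median 0.34, against 27.2% of all genes higher and a median of -0.029). Trib3, a pseudokinase, went from 329, 254 and 245 to 1529, 2318 and 1856 (2.71, SE 0.21), and the factor Atf5 rose by 2.18 (SE 0.13), while Ddit4, an inhibitor of mTORC1, fell by 1.48 (SE 0.14). Heme synthesis and handling rose in 8 of 13 cases and fell in 2, with 5 rises under hybridization-control scaling. The mitochondrial porphyrin transporter Abcb6 and the enzyme Alad rose by 1.36 (SE 0.08) and 1.19 (SE 0.065), and the heme-degrading enzyme Hmox1 fell by 0.68 (SE 0.16). Of 12 retinoid genes tested, 6 rose and 2 fell, with the retinol carrier Rbp4 at 1.96 (SE 0.19) and Retsat, retinol saturase, at 1.59 (SE 0.092). Acyl-CoA synthetases rose in 6 of 11 cases with no fall (2 with hybridization-control scaling), Acss2, which activates acetate, by 1.43 (SE 0.17). Glutathione transferases rose in 10 of 22 and fell in 5, with Gstk1 at 2.02 and Gsta3 at least 2.17-fold higher from a dim start, against Gsta4 at -1.05.

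Cytoskeletal families fell in part. Of 13 tubulins tested, 7 fell and none rose (median -0.56, against 31.5% of all genes lower). Tubb2a went from 2893, 2574 and 2218 to 373, 361 and 320.1 (-2.81, SE 0.12), and Tuba1a changed by -2.25 (SE 0.087). Tropomyosins and myosins fell in 17 of 33 cases and rose in 3 (1 with hybridization-control scaling), with the myosin light chain Myl9 at -4.83 (SE 0.43) and Tpm1 at -2.84 (SE 0.058), beside the lower sum of smooth muscle markers. The Hippo pathway and targets of its effector YAP fell in 9 of 17 cases and rose in 2. Vgll3, a cofactor of TEAD factors, changed by -4.82 (SE 0.11), Tead2 by -1.92 (SE 0.085) and the adaptor Ajuba by -2.39 (SE 0.12). Of 8 syndecans and glypicans, which are heparan sulfate carriers, 6 fell and 1 rose, with Sdc3 at -2.30, Gpc6 at -1.89 and Sdc4 at 0.65.

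Genes of the p53 response fell in 10 of 18 cases and rose in 3 (1 with hybridization-control scaling), with the kinase Plk2 at -3.85 (SE 0.17) and Pmaip1, the death effector Noxa, at -2.0 (SE 0.30). Immediate early genes fell in 12 of 21 and rose in 4 (2 with hybridization-control scaling), with Egr3 at -2.11 (SE 0.20) and Jun at 1.52 (SE 0.071). In the natriuretic peptide and nitric oxide list 5 of 10 fell and 1 rose. The clearance receptor Npr3 went from 6353, 5881 and 5787 to 294, 268 and 341 (-4.25, SE 0.11), and the cyclic GMP kinase Prkg1 changed by -3.56 (SE 0.19). Complement genes fell in 6 of 13 cases, or 3 without less specific probe sets, such as the proteases Masp1 (-4.28) and C1s1 (-2.88), and factor B, Cfb, was at least 2.02-fold higher from a dim start. Serpins fell in 8 of 17 cases and rose in 2, with 5 falls under the filter at the 60th percentile. Serpinb1a was dim afterwards and at least 5.68-fold higher before, and Serpinf1, an inhibitor of vessel growth, changed by -2.92.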
